A study of Mus musculus with 8 samples.

Results

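The 10 genes described here belong to the interleukin-33 (IL-33) and thymic stromal lymphopoietin (TSLP) alarmin axis and were followed in RNA-seq libraries of mouse endometrium: the alarmins *Il33* and *Tslp*, the receptor chains *Il1rl1*, *Il1rap*, *Crlf2*, *Il7r*, *Il9r* and *Il4ra*, and the type 2 cytokines *Il13* and *Il5*. They are 10 of the 52325 genes in the deposited table, found by matching its Ensembl identifiers to these symbols. The axis was chosen by what was already known of *Il33* and *Tslp* in these same libraries, where *Il33* was higher and *Tslp* lower in the mutants, so the genotype differences of the 10 genes are given as a description, and counts of how many pass a threshold stand beside those of all genes and support nothing. Endometrium was cut by laser capture from frozen sections of the uterus of 4 WT mice and 4 Thra1PV/+ mice, all in metestrus, and each library is 1 mouse. Thra1PV/+ mice are knock-in mice that carry a dominant negative frameshift mutation, PV, in 1 allele of the thyroid hormone receptor gene *Thra* in all tissues, and WT mice carry none. The ages of the sequenced mice are not given in the sources used here. The labels name the tissue as uterus.

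IL-33 is a cytokine of the IL-1 family that epithelial and stromal cells store in the nucleus and release when they are damaged, which is why it is called an alarmin. It binds the receptor ST2, encoded by *Il1rl1*, which signals together with the shared chain IL-1RAP (*Il1rap*) through MYD88 and the IRAK kinases. TSLP is an alarmin made by epithelial cells and fibroblasts, and its receptor pairs CRLF2 with the IL-7 receptor alpha chain (*Il7r*). Both act on group 2 innate lymphoid cells, mast cells, dendritic cells and Th2 cells, which can answer with IL-13, IL-5, IL-4 and IL-9. IL-4 and IL-13 signal through IL-4RA and STAT6, IL-9 through IL-9R, and IL-5 supports eosinophils. Squamous epithelia such as the skin hold much IL-33.

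The libraries held between 48791602 and 59818887 estimated counts. At this depth 3 counts, the level taken as the floor, equal 0.0525 to 0.0628 CPM (counts scaled to library size, after TMM normalization). Counts per gene do not tell the PV allele from the normal one, so *Thra* was not used to check the labels. Markers of simple epithelium (2210 to 5910 summed CPM) and of endometrial stroma (398 to 3910) were present in every library. Markers of squamous epithelium summed to 3010 to 4620 CPM in Thra1PV/+ and to 4.54 to 67.3 CPM in WT endometrium. Smooth muscle markers were highest in WT library 1 (12900 CPM, against 145 to 1130 in the other libraries). In bulk tissue of this kind, a change in the number of cells of a type and a change in RNA per cell cannot be told apart.

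*Il33* (ENSMUSG00000024810.16) lies on the plus strand of chromosome 19, from 29925114 to 29960718 in GRCm38, and GENCODE release M21 gives it 5 coding transcripts with 5 different starts. RefSeq lists more than 1 start for *Il33*, and the 250 bases before each of its annotated starts in GRCm38.p6 are shown because *Il33* has the largest fold change of the tested genes of the axis and because counts per gene do not tell which start was used. Window 1, chr19:29924863-29925112, precedes the whole gene, and window 2, chr19:29945540-29945789, lies inside the gene, 20677 bases further along. Both are written 5′ to 3′ on the plus strand, and capitals mark motif matches.
*Il33* window 1: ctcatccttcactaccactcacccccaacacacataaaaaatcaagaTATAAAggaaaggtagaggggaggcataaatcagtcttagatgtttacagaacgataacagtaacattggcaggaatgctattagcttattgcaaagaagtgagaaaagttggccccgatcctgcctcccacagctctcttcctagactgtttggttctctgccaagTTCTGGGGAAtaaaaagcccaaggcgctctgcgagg
*Il33* window 2: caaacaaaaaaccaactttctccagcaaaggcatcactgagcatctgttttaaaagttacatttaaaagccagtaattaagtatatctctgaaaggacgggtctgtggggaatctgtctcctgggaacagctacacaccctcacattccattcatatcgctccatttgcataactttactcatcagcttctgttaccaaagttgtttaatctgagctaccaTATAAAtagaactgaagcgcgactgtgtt
The motifs were searched on both strands. They were TGANTCA for AP-1, TATAAA for the TATA box, the palindromes preferred by STAT6 and by the other STAT factors, and AGGTCA, 1 arm of the elements that thyroid hormone receptors and related nuclear receptors bind. Window 2 holds TATAAA at position -29 counted back from the start, and window 1 holds it at -203 and a STAT6-type match at -36. Neither window holds the AP-1 motif or AGGTCA. Among all 32851 RefSeq windows of the same length, 12.4% hold TATAAA, 5.85% the STAT6-type motif, 7.02% the other STAT motif, 6.75% the AP-1 motif and 14.0% AGGTCA. A match is a description of the letters and not evidence of binding.

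*Il33* was the most abundant of the 10 genes in mutant endometrium. Thra1PV/+ libraries 1 to 4 had 15401, 15515, 14351 and 19372 estimated counts of *Il33*, and WT libraries 1 to 4 had 830, 472, 581 and 3625. All 4 mutant libraries were above all 4 WT libraries, and the mutants were close to each other while WT library 4 stood apart from the other WT libraries. Mutants averaged 308 ± 25.0 CPM and WT mice 27.9 ± 32.1 CPM (SD, n = 4 each), which is 11.0-fold or 3.46 on the log2 scale (standard error 0.71). Without WT library 4 the log2 fold change was 4.68. The transcript was detected in each WT library, at 8.52 CPM or more.

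**Figure D1:**
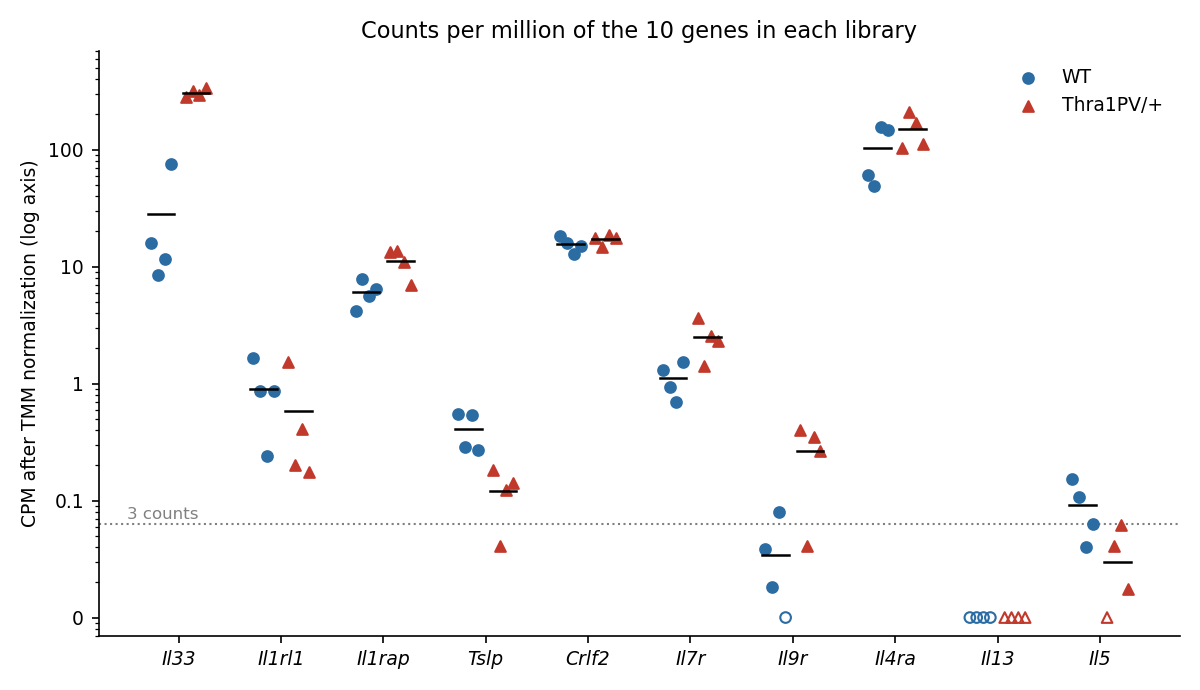
CPM after TMM normalization (log axis, 0 drawn at the bottom as open symbols) of the 10 genes in 4 WT (circles) and 4 Thra1PV/+ (triangles) libraries, with black bars at the group means and a dotted line at the highest CPM that 3 counts give. *Il33* in mutants sits between 283 and 339 CPM, *Tslp* is lower in mutants without overlap, and *Il13* is at 0 in all 8 libraries.

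WT library 4, with the highest WT level of *Il33* (75.9 CPM, against 8.52 to 15.8 in the others), did not have the most squamous marker RNA among WT libraries. Its squamous markers summed to 24.5 CPM, below WT library 3 (67.3 CPM) and WT library 2 (39.3 CPM), whose *Il33* was at 11.6 and 8.52 CPM. Its neutrophil markers summed to 104 CPM, against 4.57 to 23.2 in the other WT libraries and 48.1 to 653 in the mutants. Most of the 104 CPM came from *S100a8* (30.2 CPM) and *S100a9* (56.1 CPM), and genes of the list did not all go together. *Cxcr2* was highest of the WT libraries in WT library 4 (14.5 CPM). *Ly6g* (0.481 CPM) was below WT libraries 2 and 3 (0.831 and 2.13 CPM). Among the mutants, all 4 were high in squamous markers. Of the 11 tested squamous markers, 9 were called higher in Thra1PV/+ and none lower, where 0.990% of all tested genes were called. The median log2 fold change of those 11 was 6.76. Markers of endothelium (52.5 to 221 CPM in mutants, 72.7 to 259 in WT) overlapped between the genotypes. Markers of stroma summed to 3200, 398, 815 and 1010 CPM in Thra1PV/+ libraries 1 to 4 and to 1190 to 3910 CPM in WT libraries, so that 3 of the 4 mutants lay below every WT library. Endothelium and stroma can also make IL-33. The part of any of these tissues in the level of *Il33* was not tested.

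**Figure D2:**
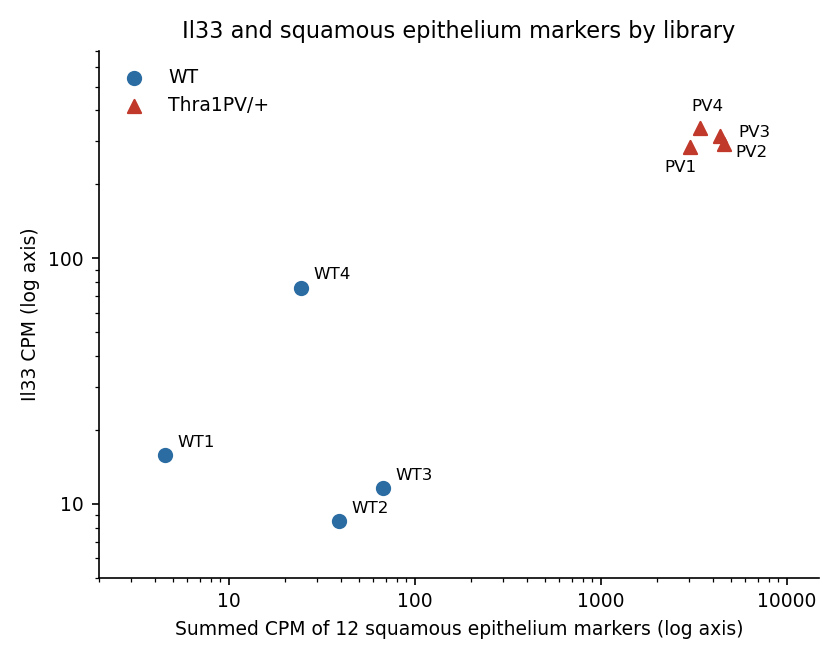
*Il33* CPM against the summed CPM of 12 squamous epithelium markers (both axes log) in 4 WT (circles) and 4 Thra1PV/+ (triangles) libraries, numbered by replicate. The mutants form 1 group at 3010 to 4620 CPM of markers, while WT library 4 is highest in *Il33* among WT libraries at 24.5 CPM of markers.

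By Pearson correlation of log2 CPM with *Il33*, over 8 libraries and among 12131 genes searched, the first 6 were *Pidd1* (0.982), *Vav1* (0.979), *Atp11a* (0.975), *Sdc1* (0.966), *Cyp4f18* (0.961) and *Fhod3* (0.959). Since they were picked for this likeness, they also have WT library 4 as the highest WT library. *Sdc1*, which encodes the epithelial and plasma cell proteoglycan syndecan-1, had 334 to 569 CPM in Thra1PV/+ and 88.2 to 231 CPM in WT endometrium, with 231 in WT library 4. The correlations describe 8 libraries of 2 genotypes, and any gene that differs between the genotypes shares that split.

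*Tslp* was scarce in both genotypes and scarcer in the mutants. *Tslp* (ENSMUSG00000024379.3, chromosome 18, 32815383 to 32819797) had 10, 2, 6 and 8 counts in Thra1PV/+ libraries 1 to 4 and 29, 16, 27 and 13 counts in WT libraries 1 to 4. The highest mutant library, with 10 counts, was below the lowest WT library, with 13, so that the genotypes did not overlap by a margin of only a few counts. The totals were 26 and 85 counts, a ratio per depth of 3.33 for WT over Thra1PV/+ with a 95% exact interval of 2.13 to 5.39 that covers counting error only. The log2 fold change was -1.74 (standard error 0.51), from 0.413 ± 0.153 CPM (SD, n = 4) in WT to 0.122 ± 0.0599 CPM (SD, n = 4) in mutant endometrium. Between the genotypes, stromal and muscle markers differed in the same direction as *Tslp*. All 9 tested stroma markers had a fold change below 0 (median log2 -0.89, 1 at an unadjusted p below 0.05, none called by edgeR). All 7 smooth muscle markers were lower at an unadjusted p below 0.05 by edgeR (median -4.01, none called). Of all tested genes, 9.77% passed that p in either direction. WT library 1 had 12900 summed CPM of muscle markers, against 568 to 1130 in the other WT libraries and 145 to 675 in mutants. That 1 library weighs heavily in the size of the muscle difference. Library by library the levels went together only in part. Thra1PV/+ libraries 1, 4, 3 and 2 had 3200, 1010, 815 and 398 summed CPM of stromal markers. Their *Tslp* had the same order, at 0.184, 0.14, 0.123 and 0.0406 CPM. WT library 1 was the highest WT library in both, at 3910 and 0.553 CPM. WT library 3 had the least stromal marker RNA of the WT libraries (1190 CPM) and 0.537 CPM of *Tslp*. Thra1PV/+ library 1 had more stromal marker RNA than WT libraries 3 and 4 but less *Tslp* than any WT library. The part of stroma or muscle in the level of *Tslp* was not tested. The 2 alarmins thus differed in opposite directions in these libraries.

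Per transcript length, on the deposited TPM scale, *Il33* exceeded *Tslp* in every library. The ratio of *Il33* to *Tslp* in TPM was 760, 2990, 886 and 1110 in Thra1PV/+ libraries 1 to 4 and 12.7, 13.1, 7.78 and 93.0 in WT libraries 1 to 4. Thra1PV/+ library 2, at 2990, rests on only 2 counts of *Tslp*, and WT library 4, at 93.0, is the library with the high *Il33*. The genes most like *Tslp* by Pearson correlation of log2 CPM over 8 libraries, among 12132 searched, were *BC004004* (0.986), *Peak1* (0.974), *Pex19* (0.973), *Cavin3* (0.969), *Ift46* (0.967) and *Gm44220* (0.967). *Cavin3*, which encodes a caveolar coat protein, had 29.1 to 59.5 CPM in mutant and 65.6 to 160 CPM in WT endometrium. At 2 to 29 counts a library, the order of *Tslp* is itself uncertain, and so is this list.

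The receptor that IL-33 binds, encoded by *Il1rl1* (ENSMUSG00000026069.15, chromosome 1, 40429570 to 40465415), was present at low counts and overlapped between the genotypes. It had 84, 10, 20 and 10 counts in Thra1PV/+ libraries 1 to 4 and 87, 48, 12 and 41 in WT libraries 1 to 4. Thra1PV/+ library 1 and WT library 1 were highest, and the other 3 mutants were at 20 counts or fewer. The log2 fold change was -0.63 (standard error 0.82). It moved to -1.74 without Thra1PV/+ library 1 and to -0.14 without WT library 1, so its size depended on both of these libraries. The difference was smaller than its own error.

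Markers of stroma and of mast cells, which carry ST2, also differed between these libraries. The 3 libraries with the most *Il1rl1*, WT 1 (1.66 CPM), Thra1PV/+ 1 (1.54 CPM) and WT 2 (0.867 CPM), were also those with the most stromal marker RNA, at 3910, 3200 and 3790 summed CPM, a pattern noticed after the values were seen. The cut after WT library 2 is a narrow one. WT library 4 had nearly as much *Il1rl1* (0.858 CPM) but only 1510 summed CPM of stromal markers. Genes of the mast cell list did not go together. Protease genes of connective tissue mast cells were highest in WT library 1, with 74 counts of *Cpa3*, 99 of *Mcpt4*, 203 of *Tpsb2* and 135 of *Cma1*. Thra1PV/+ library 1, with nearly as much *Il1rl1*, had 6, 0, 3 and 7 counts of the same 4 genes. *Kit* and *Hdc*, which other cells also express, were lowest of all libraries in WT library 1, at 8.03 and 20.7 CPM, and so was the summed list, at 39.1 CPM against 48.7 to 290 CPM elsewhere. The part of mast cells or stroma in the level of *Il1rl1* was not tested.

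The signalling partner of ST2 stood higher per length, at 3.57 TPM in mutants where *Il1rl1* was at 0.173 TPM. *Il1rap* (ENSMUSG00000022514.14, chromosome 16, 26581704 to 26730117) had 730, 670, 534 and 399 estimated counts in Thra1PV/+ libraries 1 to 4 and 219, 432, 284 and 308 in WT libraries 1 to 4. Mutant libraries 1 to 3, at 10.9 to 13.6 CPM, were above all WT libraries, and mutant library 4, at 6.99 CPM, lay below WT library 2, at 7.80 CPM. The log2 fold change was 0.90 (standard error 0.29), from 6.02 ± 1.51 to 11.2 ± 3.08 CPM (SD, n = 4 each). IL-1RAP also serves the receptors of IL-1 and IL-36, so its level is not a measure of ST2 alone.

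The chain that TSLP binds was among the steadiest of the 10 genes. *Crlf2* (ENSMUSG00000033467.12, chromosome 5, 109554709 to 109558993, minus strand) had 965, 719, 917 and 993 estimated counts in Thra1PV/+ libraries 1 to 4 and 948, 886, 638 and 723 in WT libraries 1 to 4. The ranges overlapped, at 14.6 to 18.7 CPM in mutant and 12.7 to 18.1 CPM in WT endometrium. The log2 fold change was 0.14 (standard error 0.16), within its own error of 0. *Crlf2* thus stood at 23.0 TPM or more in libraries where its ligand was below 1 TPM.

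*Il7r* (ENSMUSG00000003882.5, chromosome 15, 9505788 to 9530176, minus strand), which lymphocytes use for IL-7 and which completes the TSLP receptor, had 200, 70, 124 and 132 counts in Thra1PV/+ libraries 1 to 4 and 68, 52, 35 and 73 in WT libraries 1 to 4. Mutant libraries 1, 3 and 4 were above all WT libraries, and mutant library 2 (1.42 CPM) lay below WT library 4 (1.53 CPM). The log2 fold change was 1.15 (standard error 0.40), from 1.12 ± 0.37 to 2.48 ± 0.93 CPM (SD, n = 4 each). T cell markers summed to 31.7, 13.9, 25.3 and 38.3 CPM in Thra1PV/+ libraries 1 to 4 and 23.4, 22.9, 9.61 and 19.0 CPM in WT libraries 1 to 4. Mutant library 2 was lowest of the mutants and WT library 3 lowest of the WT libraries in both *Il7r* and these markers. The highest libraries were not the same. *Il7r* was highest in mutant library 1 and WT library 4, and the marker sum in mutant library 4 and WT library 1. Of the 8 T cell markers, 6 had a fold change above 0 and 2 below. In edgeR's quasi-likelihood test, 4 of the 8 had an unadjusted p below 0.05, each higher in mutants, where 9.77% of all tested genes passed. None of the 8 was called, and their part in *Il7r* was not tested.

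*Il9r* (ENSMUSG00000020279.10, chromosome 11, 32187541 to 32200279, minus strand) had 22, 2, 17 and 15 counts in Thra1PV/+ libraries 1 to 4 and 2, 1, 4 and 0 in WT libraries 1 to 4. Mutant libraries 1, 3 and 4 were above every WT library, and mutant library 2 was within the WT range. The totals of 56 and 7 counts gave a ratio per depth of 7.85 for Thra1PV/+ over WT, with a 95% exact interval of 3.57 to 20.4 for counting error only. *Il9r* was too low for the filter of the genotype comparison and has no fitted fold change.

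*Il4ra* (ENSMUSG00000030748.9, chromosome 7, 125552120 to 125579474), the chain shared by the receptors of IL-4 and IL-13, was well expressed and overlapped between the genotypes. It had 5668, 10383, 8302 and 6423 estimated counts in Thra1PV/+ libraries 1 to 4 and 3184, 2684, 7823 and 7067 in WT libraries 1 to 4. WT libraries 3 and 4 lay inside the mutant range and WT libraries 1 and 2 below it. The log2 fold change was 0.53 (standard error 0.43), from 103 ± 56.4 to 149 ± 50.3 CPM (SD, n = 4 each). Among WT libraries, markers of simple epithelium split the same way. They summed to 2210 and 3050 CPM in WT libraries 1 and 2 and to 5750 and 5910 CPM in WT libraries 3 and 4. In Thra1PV/+ libraries 1 to 4 they summed to 2210, 4650, 5440 and 3970 CPM, so WT libraries 3 and 4 lay above the mutants. Thra1PV/+ library 1 and WT library 1 had equal sums but 104 and 60.8 CPM of *Il4ra*. The likeness among WT libraries was noticed after the values were seen. The part of simple epithelium in *Il4ra* was not tested.

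The type 2 effector cytokines were barely detected or not detected at all. *Il13* (ENSMUSG00000020383.1, chromosome 11, 53631324 to 53634702, minus strand) had 0 counts in each of the 8 libraries, which allows up to 0.0525 to 0.0628 CPM a library. *Il5* (ENSMUSG00000036117.2, chromosome 11, 53720794 to 53725106), 86091 bases away in the same type 2 cytokine cluster, had 0, 2, 3 and 1 counts in Thra1PV/+ libraries 1 to 4 and 8, 6, 2 and 3 in WT libraries 1 to 4. The totals were 6 and 19, a ratio per depth of 3.23 for WT over Thra1PV/+ with a 95% exact interval of 1.24 to 9.87 for counting error only. *Il5* was thus not higher in the endometrium with more *Il33*, and 2 of the 4 mutant libraries lay below every WT library. *Il9* was also at 0 counts in every library, *Il4* had at most 7 counts and *Il25* at most 5.

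On the TPM scale, which allows genes to be compared per length, the order of the 10 genes differed between the genotypes at its top. In Thra1PV/+ endometrium *Il33* led at 168 ± 14.9 TPM (SD, n = 4), apart from *Il4ra* at 43.2 ± 12.9 and *Crlf2* at 33.4 ± 4.09, whose ranges overlapped. *Il1rap* (3.57 TPM) and *Il7r* (0.954 TPM) came next, each apart from its neighbours, and *Il1rl1* (0.173), *Tslp* (0.156), *Il9r* (0.0946), *Il5* (0.0291) and *Il13* (0) each overlapped with the next. In WT endometrium *Crlf2* (32.7 ± 8.70), *Il4ra* (28.8 ± 14.0) and *Il33* (14.3 ± 16.3) overlapped in that order. *Il1rap* followed at 2.01 TPM, apart from both neighbours, and then *Tslp* (0.548), *Il7r* (0.424), *Il1rl1* (0.253) and *Il5* (0.0816), each overlapping with the next, before *Il9r* (0.00961) and *Il13* (0). *Il1rl1* was below its ligand *Il33* and its partner *Il1rap* in both genotypes, with ranges apart.

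Read together, 7 of the 10 genes passed the filter on low counts, 5 with a fold change above 0 and 2 below, and the median log2 fold change of the 7 was 0.53, where that of all 18174 tested genes was -0.05. To be called, a gene had to differ at least 2-fold with an adjusted p of at most 0.1 by edgeR's quasi-likelihood test. None of the 7 was called, where 180 of all tested genes (0.990%) were. At an unadjusted p below 0.05 there were 4, *Il33*, *Tslp*, *Il1rap* and *Il7r*, where 9.77% of all tested genes passed. *Il33* and *Tslp* were the 2 of 7 without overlap between the genotypes, where 6.04% of all tested genes had none. DESeq2, with the same thresholds, called 4 of the 9 genes that had counts, *Il33*, *Tslp*, *Il7r* and *Il9r*. It called 2.64% of the 29984 genes that it tested. The genotype contrast chose the axis, so nothing is read from these counts about the 10 genes.

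**Figure D3:**
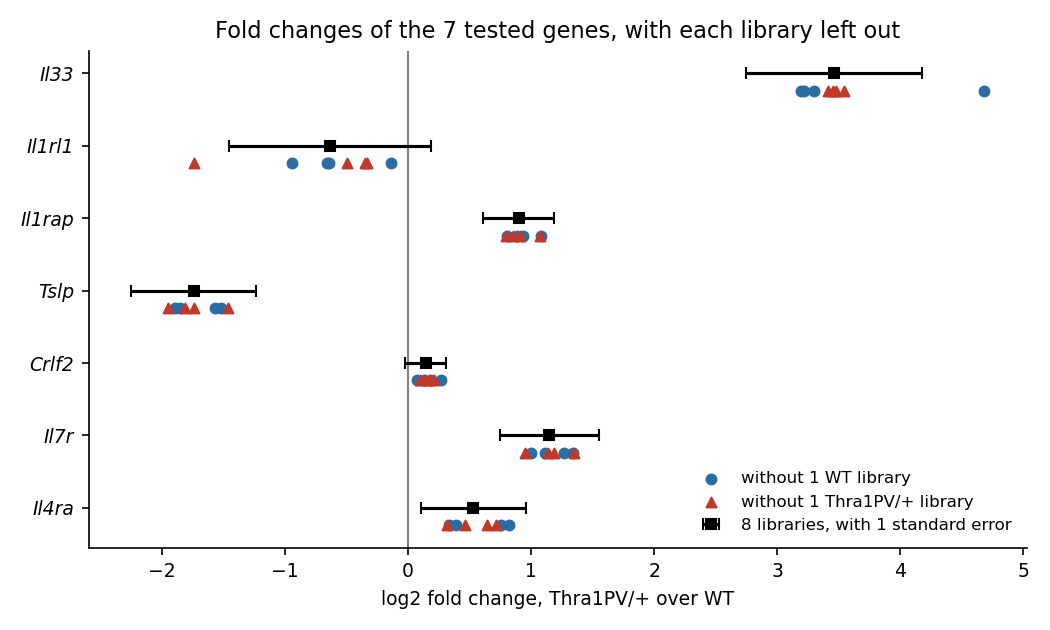
Log2 fold change, Thra1PV/+ over WT, of the 7 tested genes in all 8 libraries (black squares, bars of 1 standard error) and with each WT library (circles) or each Thra1PV/+ library (triangles) left out. *Il33* moves from 3.46 to 4.68 without WT library 4, *Il1rl1* from -0.63 to -1.74 without Thra1PV/+ library 1, and no gene crosses 0.

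The pathway around the 10 genes was examined with 69 further genes in 5 lists. The lists were written from general knowledge, but with earlier results of these data known, so their counts are a description. Of the 56 that were tested, edgeR called 1, where it called 0.990% of all tested genes. DESeq2 called 7 of the 59 that it tested, where it called 2.64% of the 29984 genes that it tested, a wider set than edgeR's 18174. In edgeR, 9 of the 56 had an unadjusted p below 0.05 (5 higher and 4 lower in mutants), where 9.77% of all tested genes passed. The median log2 fold change of the 56 was -0.03. A share of 44.6% was above 0, where 43.2% of all tested genes were. The signalling chain behind ST2 was expressed in all libraries and showed little difference. Of its 14 genes, among them *Myd88*, the IRAK kinases, *Traf6* and the NF-kB subunits, all were tested, none was called and none reached an unadjusted p of 0.05, with a median log2 fold change of -0.01. The smallest p in this list was that of *Mapk14*, the stress kinase p38 alpha, at a log2 difference of 0.19 (standard error 0.12, adjusted p = 0.671 by edgeR's quasi-likelihood test). *Tollip*, an inhibitor of the IRAK kinases, was at -0.22 (standard error 0.16, adjusted p = 0.714). *Myd88* was at -0.38 (standard error 0.33, adjusted p = 0.772), and at 0.04 without WT library 2, whose level of 132 CPM was the highest.

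**Figure D4:**
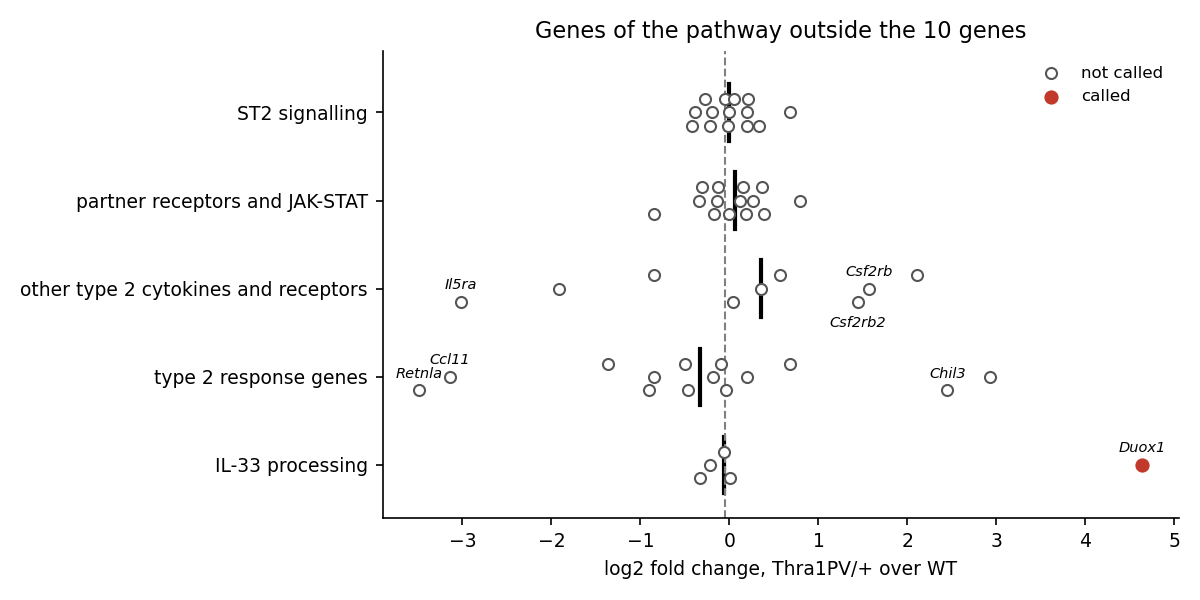
Log2 fold change, Thra1PV/+ over WT, of each tested gene in the 5 pathway lists (open circles, not called, red, called), with black bars at list medians and a dashed line at the median of all tested genes. Genes of ST2 signalling and of the JAK-STAT list lie within 1 of 0, and *Duox1*, at 4.64, is the gene that was called.

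The JAK-STAT genes that serve IL-7, TSLP, IL-4 and IL-13 receptors gave a like picture. Of 15 partner receptors and JAK-STAT genes, 14 were tested, none was called, and the median log2 fold change was 0.06. The gene with the smallest p was *Jak2*, the kinase that CRLF2 uses in TSLP signalling, with 128 ± 15.5 CPM in Thra1PV/+ and 230 ± 97.1 CPM in WT endometrium (SD, n = 4 each), a log2 difference of -0.85 (standard error 0.30, adjusted p = 0.391 by edgeR's quasi-likelihood test). The feedback inhibitors *Socs3* (0.80, standard error 0.47) and *Cish* (-0.34, standard error 0.26), which STAT signalling induces, did not pass either.

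Among 12 other type 2 cytokines and receptors, 9 were tested and edgeR's quasi-likelihood test called none, while DESeq2 called *Csf2rb* and *Csf2rb2*, both higher in mutants. *Csf2rb*, the signalling chain of the IL-5, IL-3 and GM-CSF receptors, had 26.5 ± 10.2 CPM in Thra1PV/+ and 8.91 ± 4.83 CPM in WT endometrium (SD, n = 4 each), a log2 difference of 1.57 (standard error 0.43, edgeR's adjusted p = 0.247). Its near-identical neighbour *Csf2rb2* had 11.9 ± 3.36 and 4.38 ± 1.51 CPM, or 1.44 on the log2 scale (standard error 0.33, edgeR's adjusted p = 0.141), and how salmon divided reads between the 2 genes cannot be seen in the counts. *Il5ra*, the chain that binds IL-5, had 2, 29, 11 and 19 counts in Thra1PV/+ libraries 1 to 4 and 43, 12, 422 and 11 in WT libraries 1 to 4. Its log2 difference of -3.02 (standard error 1.34, adjusted p = 0.519) became -0.50 without WT library 3, the library with 422 counts.

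Genes that IL-4, IL-13 and IL-33 are known to raise in epithelium and macrophages differed in both directions. Of 19 type 2 response genes 14 were tested and edgeR's quasi-likelihood test called none, with 2 higher and 3 lower in mutants at an unadjusted p below 0.05, while DESeq2 called *Chil3* and *Itln1* higher and *Ccl11* and *Retnla* lower. In edgeR, 9.77% of all tested genes had an unadjusted p below 0.05, and the median log2 fold change of the 14 was -0.33. *Ccl11*, which encodes the eosinophil chemokine eotaxin-1, had 126, 54, 295 and 81 counts in Thra1PV/+ libraries 1 to 4 and 725, 441, 2667 and 994 in WT libraries 1 to 4. All 4 mutants were below all 4 WT libraries, at a log2 difference of -3.14 (standard error 0.76, adjusted p = 0.179 by edgeR's quasi-likelihood test). It was not called in that fit, and it was called lower by DESeq2 (-3.12) and with replicate number as a block (-3.11). The macrophage lectin gene *Chil3* was at 2.45 (standard error 0.74, adjusted p = 0.316) and *Retnla*, which encodes the resistin-like protein FIZZ1, at -3.49 (standard error 1.18, adjusted p = 0.367). Both genes overlapped between the genotypes. *Retnla* had 22, 1, 8 and 7 counts in Thra1PV/+ libraries 1 to 4 and 46, 299, 5 and 82 in WT libraries 1 to 4. Its log2 fold change was -2.3 without WT library 2, the library with 299 counts. *Retnlb* had 0 counts in every library.

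The 1 called gene of the 5 lists was *Duox1*, which encodes a dual oxidase that makes hydrogen peroxide at epithelial surfaces and acts in the release of IL-33. It had 217, 359, 230 and 231 estimated counts in Thra1PV/+ libraries 1 to 4 and 22, 4, 13 and 2 in WT libraries 1 to 4. All mutants were above all WT libraries, and *Duox1* rose by 4.64 on the log2 scale (standard error 0.72, adjusted p = 0.0314 by edgeR's quasi-likelihood test). It was not called without Thra1PV/+ library 3, at a log2 fold change of 4.67. WT library 4, the WT library with the most *Il33*, had the fewest *Duox1* counts. Of the other IL-33 processing genes, the neutrophil protease genes *Elane* and *Ctsg* had 0 counts in every library, and *Prtn3* (-0.34, standard error 0.42) and *Capn1* (-0.22, standard error 0.28) did not pass. Squamous markers, at 3010 to 4620 summed CPM in the libraries with high *Duox1*, moved with this gene too, and their part was not tested.

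Markers of the cells that answer alarmins were uneven, some at 0 and others well expressed. The granule protein genes of eosinophils *Epx* and *Ear6* and the basophil protease gene *Mcpt8* had 0 counts in all 8 libraries. Of 5 basophil markers 1 was tested, *Cd200r3*, and it was not called. It had 41, 55, 332 and 284 estimated counts in Thra1PV/+ libraries 1 to 4 and 22, 6, 705 and 112 in WT libraries 1 to 4. Other eosinophil markers were present. Of 8 eosinophil markers 4 were tested, and edgeR's quasi-likelihood test called none. At an unadjusted p below 0.05 by that test, where 9.77% of all tested genes passed, 2 were higher in mutants. These were *Siglecf*, at 0.708 ± 0.138 against 0.352 ± 0.0696 CPM (SD, n = 4 each) with no overlap, and the granule protein gene *Prg2*, at 65, 22, 163 and 124 counts in Thra1PV/+ libraries 1 to 4 and 25, 48, 5 and 6 in WT libraries 1 to 4. The other 2 tested eosinophil markers, *Il5ra* (log2 fold change -3.02) among them, were below 0. The median log2 fold change of the 4 was 0.07. Of 10 mast cell markers 2 were tested and none called. Markers of macrophages and dendritic cells summed to 238 to 847 CPM in mutant and 297 to 542 CPM in WT endometrium. Of 9 markers of group 2 innate lymphoid cells and Th2 cells 7 were tested. Where 0.990% of all tested genes were called, 1 of the 7 was, *Gata3*. It had 703, 632, 483 and 541 estimated counts in Thra1PV/+ libraries 1 to 4 and 138, 144, 56 and 73 in WT libraries 1 to 4, a rise of 2.51 on the log2 scale (standard error 0.34, adjusted p = 0.0192 by edgeR's quasi-likelihood test). GATA3 is the master regulator of type 2 lymphocytes and is also made by squamous and other epithelia, and which cells carried it was not tested. Over the 7 tested, 4 fold changes were above 0 and 3 below, with a median log2 fold change of 0.65. *Icos*, a costimulatory receptor of activated T cells and innate lymphoid cells, was the other with an unadjusted p below 0.05, at 1.90 (standard error 0.58, adjusted p = 0.326 by edgeR's quasi-likelihood test).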

How the data were processed

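The authors made paired-end mRNA libraries, trimmed the reads with Trimmomatic and ran salmon for mouse genome mm10. What they deposited are estimated counts for each gene, not normalized, and a table of TPM values. The version of salmon and the annotation are not given in the sources used here. Between libraries, sorted TPM values were within 0.291 TPM of each other at each rank, as after quantile normalization. In that table, 1 column maps to no sample and was left out.

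The estimated counts were rounded, filtered with filterByExpr (minimum count 10, minimum total 15; 18174 of 52325 genes stayed) and scaled by TMM in edgeR 4.0.16 (R 4.3.3, limma 3.58.1). The quasi-likelihood test had genotype as its only term, and p-values were adjusted by Benjamini-Hochberg over the 18174 genes. Calls needed a 2-fold difference and an adjusted p of at most 0.1. Standard errors come from the fold change divided by the root of F. Of the identifiers, 52220 have a symbol. Log2 CPM (prior count 2) of libraries of 1 genotype correlated at 0.901 to 0.974 over genes, which are not independent replicates. The fit was tested on simulated data.

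The 10 genes, the 5 pathway lists and the marker lists were chosen with earlier results of these data known. Named beside the 10 genes are the called genes of each pathway list and further ones by smallest p up to 3 in all, pathway genes at or under 3 counts in every library, the 6 genes most like *Il33* and most like *Tslp* with mean log2 CPM no lower than 2, and markers that stand beside a result. Genes named outside these rules were picked after their values were seen: *Il4*, *Il25*, *Itln1*, the mast cell genes, the neutrophil genes, *Cd200r3*, *Icos*, *Siglecf* and *Prg2*. Positions come from GENCODE M21 (GRCm38), where 9 of the 10 identifiers have the same version, and sequences from RefSeq (GRCm38.p6), with 11 windows for 9 of the 10 genes. The alternatives were DESeq2 1.42.0 (the authors' tool), other normalizations, filters and thresholds, limma voom, limma on log2 of the deposited TPM plus 1 or 0.1, a replicate block and each library left out. Intervals cover counting error only, and p-values weigh the genotype difference against the spread between mice of the same genotype.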

Additional observations from a re-analysis of the deposited data

Results flagged for a closer look

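In a group of 4 libraries, a library was marked when its gap to the nearest other library, divided by the range of the group, exceeded Dixon's 95% critical value. This was so in 3 of 48 groups on the CPM scale, where chance gives about 1 in 20, or 2.4, and in 0 of 48 on a log2 scale. WT library 4 had 75.9 CPM of *Il33*, with 8.52 to 15.8 CPM in the rest of its group, a ratio of 0.8914. Thra1PV/+ library 1 had 1.54 CPM of *Il1rl1*, with 0.175 to 0.409 CPM in the rest, a ratio of 0.8292 that is just past the limit. WT library 3 had 8.40 CPM of *Il5ra*, with 0.217 to 0.820 CPM in the rest, a ratio of 0.9262.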

How the results depend on the processing

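All 7 tested genes of the axis kept the direction of their fold change in all alternatives run (17 for *Tslp*, 18 for each of the others). The number of genes of the axis called rose from 0 to 1, *Il33*, with upper quartile or library size normalization, with a filter of 1 count in any library, with limma voom, with limma on TPM (pseudocount 1 or 0.1) and without WT library 4, and to 4 with DESeq2 and with an unadjusted p below 0.05; each library left out gave 0 to 1. Of all genes, 180 were called in the fit reported, 81 with at least 10 counts in every library, 791 with DESeq2, 311 with limma voom, 119 at an adjusted p of 0.05 or less, 1775 at an unadjusted p below 0.05 and 81 to 167 with each library left out. Of the pathway genes, 1 was called in the fit reported, 0 with at least 10 counts in every library, which leaves out *Duox1*, 7 with DESeq2 (*Duox1*, *Csf2rb*, *Csf2rb2*, *Chil3*, *Itln1*, *Ccl11* and *Retnla*), 9 at an unadjusted p below 0.05 and 0 to 1 with each library left out (0 without Thra1PV/+ library 3).

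With replicate number as a replicate block, 82 genes were called. Of the pathway genes, 1 was called, *Ccl11* (log2 fold change -3.11), and *Duox1* (4.96) was not. The numbers did not pair the libraries: deviations of same-numbered libraries correlated at 0.269, -0.436, 0.340 and -0.159, and 2 of 8 libraries were closest to their own number. Fold changes below 0 turned above 0 without WT library 2 for *Myd88* (0.0446, range -0.53 to 0.0446) and *Capn1* (0.126, range -0.35 to 0.126); the cause was not tested. On TPM with a pseudocount of 1, which compresses low values, *Tslp* was at -0.41 and *Il7r* at 0.44. Depth limits *Tslp*, *Il9r* and *Il5* to at most 29 counts a library.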
